A study of Mus musculus with 14 samples.

Results

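The Foxp3 locus was described from every peak that touched a 55 kb window of chromosome X, from 7425000 to 7480000 in the mouse build mm39. The window was fixed by position alone, with Foxp3 lying near 7445900 to 7461500 and read from left to right. It held 32 of the 309136 peaks in the 10 lists, 31 of them from H3K27ac and 1 from H3K27me3. H3K27ac is found at promoters and enhancers in use, while H3K27me3 is laid down by Polycomb at silenced genes. Both were mapped in sorted regulatory T cells of mice. The assay was CUT&Tag, where a transposase is brought to the mark by an antibody and releases the DNA around it for sequencing.

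Cells were sorted from control chimeras (Foxp3YFPcre;wt) and from chimeras whose regulatory T cells lacked Slc31a1 (Foxp3YFP-Slc31a1△;wt), called knockouts here. The product of Slc31a1, CTR1, takes copper into the cell. H3K27ac had lists for 3 control and 3 knockout libraries and H3K27me3 for 2 and 2, out of 14 samples, and 4 IgG samples were not analysed here. Both genotype names include a Foxp3 allele with YFP, which in the control name is joined to Cre, so a modified copy of the gene described here is part of both genotypes. Both names also end in wt, and which Foxp3 allele the reads came from was not tested. Age and sex of the animals and the making of the chimeras are not given in the sources used here. Within a mark and genotype, each library comes from a chimera with its own number in the titles. H3K27ac libraries 1, 2 and 3 are of chimeras 2, 3 and 4, and H3K27me3 libraries 1 and 2 are of chimeras 1 and 2. Whether a numbered chimera is 1 animal or a pool is not stated, and p-values measure the spread between these libraries. Deletion of Slc31a1 was not checked, because no annotation of mm39 was used. The lack of Slc31a1 is thus taken from the genotype name, and whether it holds for all sorted cells was not tested.

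Foxp3 encodes the forkhead transcription factor that defines regulatory T cells and that their suppressive function depends on. Its expression is controlled by the promoter and by conserved noncoding sequences (CNS). CNS1 serves induction of the gene in peripheral tissues and responds to TGF-β signalling. CNS2 keeps Foxp3 expressed through cell division and is demethylated in stable regulatory T cells. CNS3 helps to start expression in the thymus, and a further enhancer, CNS0, lies upstream of the promoter. In a table of the older build GRCm38.p6, used only for the order of genes, Foxp3 lies between Ppp1r3f and the long noncoding RNA Flicr on its left and Ccdc22 and Cacna1f on its right.

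The promoter sequences are shown because every H3K27ac list had a peak over the Foxp3 start, and RefSeq gives the gene 2 starts that lie 807 bp apart. They are those of the RefSeq table in GRCm38.p6, on the plus strand, from 250 bases before a start to 50 after it. They are not positioned in mm39 here. Capitals mark TATAAA, a reversed CCAAT box and reversed GGAAA cores.

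Foxp3 start 1, chrX:7579426-7579725: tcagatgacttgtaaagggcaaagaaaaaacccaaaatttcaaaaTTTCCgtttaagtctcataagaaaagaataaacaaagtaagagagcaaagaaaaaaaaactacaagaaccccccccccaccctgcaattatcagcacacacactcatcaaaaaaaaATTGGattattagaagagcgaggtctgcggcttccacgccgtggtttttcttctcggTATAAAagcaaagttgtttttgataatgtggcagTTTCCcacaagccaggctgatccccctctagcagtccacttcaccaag
Foxp3 start 2, chrX:7580233-7580532: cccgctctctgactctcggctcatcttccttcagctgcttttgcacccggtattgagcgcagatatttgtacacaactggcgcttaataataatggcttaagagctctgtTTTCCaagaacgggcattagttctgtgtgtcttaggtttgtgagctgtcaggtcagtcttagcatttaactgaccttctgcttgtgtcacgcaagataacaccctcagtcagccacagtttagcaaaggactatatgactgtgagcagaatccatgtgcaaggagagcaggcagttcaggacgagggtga

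TATAAA, the letters of a TATA box, began 32 bases before start 1 and was not found at start 2. Of 32851 promoters in the table, 13.6% held it on either strand. A CCAAT box in reverse, which reads ATTGG here, began 89 bases before start 1, and 37.4% of promoters held it. GGAAA, the core read by NFAT and other factors, lay in reverse (TTTCC) 205 bases before and 2 bases after start 1 and 140 bases before start 2, and 61.3% of promoters held it. No match in either window, on both strands, was found for the Runx core TGTGGT, which 16.8% of promoters held. The same holds for the AP-1 site TGANTCA, in 7.81% of promoters, and for the forkhead site TGTTTAC, in 3.65%. No searched motif overlapped another at start 1 or start 2, and a match is a description of letters, not of binding.

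Foxp3 lay inside a long acetylated stretch in every H3K27ac library of both genotypes. H3K27ac peaks covered 29537, 32096 and 32273 bases of the window in the control lists (libraries 1, 2 and 3, in this order here and below), against 30524, 35567 and 34001 bases in the knockout lists. The groups overlapped, with control 1 and knockout 1 at the low end of their genotypes. The control mean was 31302 ± 1531 bases and the knockout mean 33364 ± 2581 (SD, n = 3 per genotype), a difference of 2062 bases that was within the spread between libraries (two-sided exact permutation test, p = 0.3, where 0.1 is the smallest this design allows). Leaving out 1 library moved this difference by over 1.5 times. It was 1180 bases without control 1, 961 without knockout 2 and 3482 without knockout 1, with p between 0.1 and 0.6 over all libraries left out in turn.

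**Figure D1:**
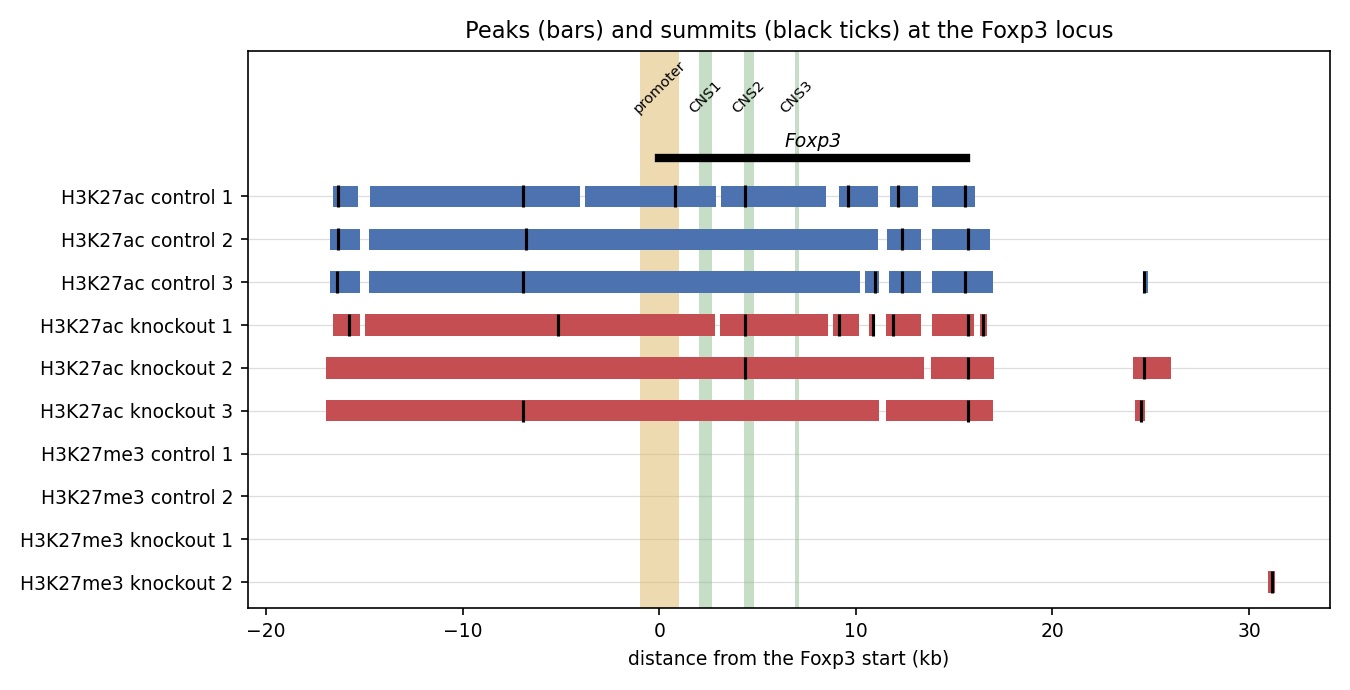
Peaks (bars) and their summits (black ticks) in each of the 10 lists, by distance from the Foxp3 start in kb, with the promoter and the 3 intronic elements shaded and controls in blue, knockouts in red. All 6 H3K27ac lists covered the promoter and elements, and the H3K27me3 lists held 1 peak, in knockout 2.

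Within the gene interval, the control lists covered 13355, 14587 and 14275 bases and the knockout lists 13472, 15253 and 15208. As shares of the interval these are 85.6%, 93.5% and 91.5% for controls, against 86.4%, 97.8% and 97.5% for knockouts. Library 1 of each genotype was again the lowest, and the groups overlapped. The means were 14072 ± 641 and 14644 ± 1016 bases (SD, n = 3 each, two-sided exact permutation test, p = 0.5). The difference of 572 bases ranged from 213 without control 1 to 1158 without knockout 1, and was 268 without knockout 2, 290 without knockout 3 and 1173 when only the upper part of each list by −log10 p was kept.

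**Figure D2:**
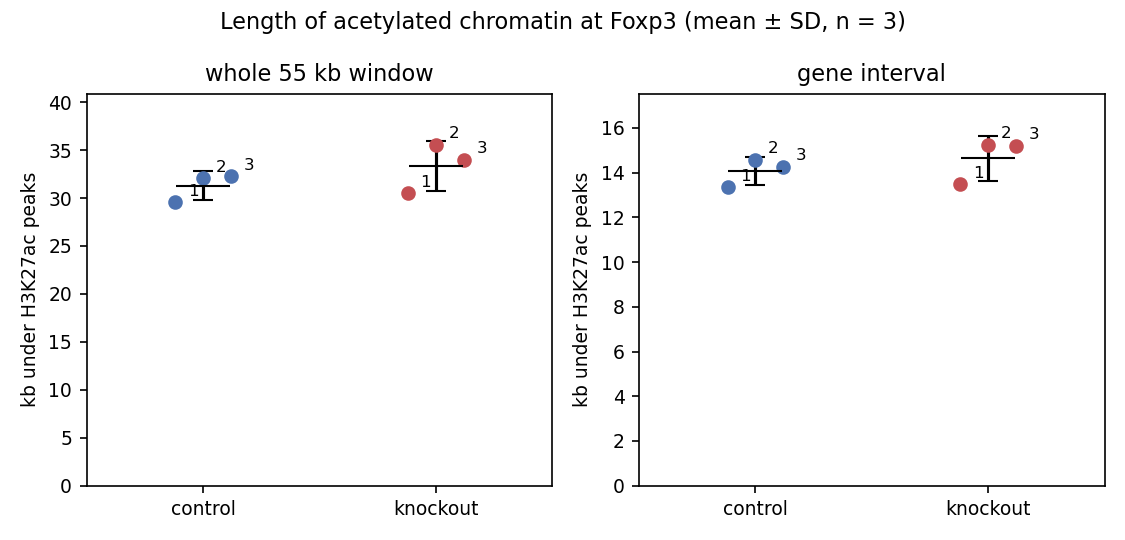
Length under H3K27ac peaks in kb, in the whole window (left) and in the gene interval (right), with 1 point per library, its replicate number, and the mean ± SD of 3 libraries. In both panels library 1 of each genotype lies lowest, and the knockouts overlap the controls.

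The widest peak of the locus was the widest on the whole X chromosome in 5 of the 6 lists. Its width was 10674, 25896 and 25001 bp for the controls, against 17778, 30431 and 28109 bp for the knockouts. In control 1 it ranked 4 among 675 peaks on X. Across all chromosomes it ranked 143, 21 and 17 by width in the control lists and 40, 39 and 30 in the knockout lists. The −log10 p of the highest peak of the locus ranked lower than its width, at 33, 7 and 7 on X for the controls and 24, 7 and 7 for the knockouts.

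The acetylated stretch ended close to the gene on the right and reached far beyond it on the left. Its left edge lay between 16.59 and 16.96 kb before the Foxp3 start over the 6 lists. Its right edge lay between 0.46 and 1.43 kb after the gene end. To the left, the next peak ended 4.74 to 6.34 kb away, and to the right no list had a peak between 7462931 and 7469979.

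Nearly the same bases were acetylated in every library. Of 35915 bases covered in any list, 28816 (80.2%) were covered in all 6. The mean Jaccard index of the window, the shared share of covered bases for a pair of lists, was 0.914 within genotypes (6 pairs) and 0.908 between them (9 pairs). No base was covered in controls only. One or more knockouts and no control covered 3287 bases, which lay at the edges and gaps of the block and at a peak to the right of the gene. Without knockout 2 this was 1620 bases, and 235 bases were then covered in controls only. The only stretches found in all 3 knockouts and no control were 156 bp from 7430962 to 7431117 and 30 bp from 7457450 to 7457479.

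**Figure D3:**
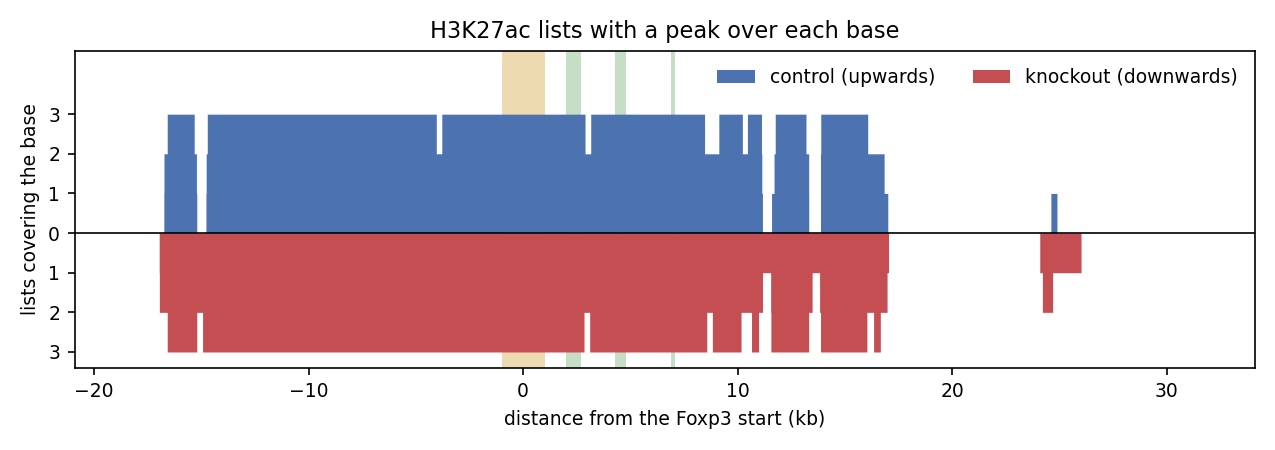
Number of H3K27ac lists with a peak over each base, controls upwards and knockouts downwards, by distance from the Foxp3 start in kb, with the promoter and intronic elements shaded. The block from about 17 kb before the start to the gene end is covered in both genotypes, broken by gaps at like places.

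Each named control element of the gene was wholly under an H3K27ac peak in all 6 lists. The promoter was taken as 1 kb on either side of the start. CNS1 was taken at 2.0 to 2.7 kb, CNS2 at 4.3 to 4.8 kb and CNS3 at 6.9 to 7.1 kb after the start, positions known from the literature and rounded. All were covered to 100% in every control and every knockout, so that covered length could not show a difference there. No H3K27me3 list covered any base of them.

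Summits, the single highest point that a peak list gives for each peak, are a sparser record than coverage. A peak of 30 kb has only 1 summit, so an element without a summit may still be strongly acetylated. Of the 31 H3K27ac summits, 9 lay more than 1 kb before the start, 1 at the promoter, 3 at CNS2, none at CNS1 or CNS3, 10 in the rest of the gene and 8 past its end. A summit was counted at an element if it lay within 0.3 kb of it.

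CNS2, the element that holds Foxp3 expression through division, carried a summit in control 1, knockout 1 and knockout 2. These lay at 7450263, 7450283 and 7450263, between 4363 and 4383 bp after the start, within 20 bp of each other. The fragments piled up at the summit, read back from the fold and p of the peak, numbered 213 in control 1, 196 in knockout 1 and 296 in knockout 2. Exact 95% Poisson intervals were 185 to 244, 170 to 225 and 263 to 332, and cover counting error only. Within their own lists, CNS2 had the highest −log10 p of the locus in knockouts 1 and 2, the promoter had it in control 1, and an upstream summit had it in controls 2 and 3 and in knockout 3. In knockout 1 the pileup at CNS2, 196 fragments, was below the 208 at its upstream summit, where the local background was 58.0 fragments against 24.0 at CNS2. The other 3 lists had no separate CNS2 summit, and no test between the genotypes was made of these ranks.

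A summit upstream of the promoter recurred in 4 lists, when summits within 200 bp were grouped. Whether it lies at CNS0 was not tested, since no position of that element was used. It lay at 7438990 in control 1 and knockout 3, 7439146 in control 2 and 7438995 in control 3, which is 6.75 to 6.91 kb before the start. Pileups there were 218, 158 and 219 fragments for the controls and 204 for knockout 3. It was the highest point of the locus by −log10 p in controls 2 and 3 (111.3 and 141.1) and in knockout 3 (98.8). In knockout 1 the summit of the matching peak lay at 7440775, 5.12 kb before the start, with 208 fragments. Within control 1, the only list with a separate summit here and at CNS2, the pileups of 218 (95% interval 190 to 249) and 213 differed by less than counting error.

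The promoter carried a summit of its own only in control 1. It lay at 7446715, 815 bp after the start that the window rule gives, with 117 fragments, fewer than at CNS2 or upstream in that list. Its −log10 p of 84.6 was nevertheless the highest of the locus in control 1, above the 79.6 of the upstream summit. The local background there was 9.25 fragments, against 43.2 at the upstream summit and 50.1 at CNS2.

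The background that the authors' peak caller set against each summit differed between lists at the same element. It is given here as a multiple of the list's genome-wide background, the value that most peaks share. At CNS2 it was 17.4 times that value in control 1, 9.39 times in knockout 1 and 9.04 times in knockout 2, and the folds were 4.19, 7.89 and 10.4. The pileup at CNS2, as the same multiple, was 74.0, 76.8 and 97.2. At the upstream summit the background was 14.99, 6.19 and 9.78 times for the controls and 12.1 times in knockout 3, with folds of 4.96, 11.4, 10.2 and 6.80.

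The depth of the library behind that background differed between the lists of the genotypes. Read back from the peaks, it was 16.1, 13.1 and 13.1 fragments per kb behind the controls, against 20.66, 20.61 and 20.62 behind the knockouts. H3K27me3 knockout 1 gave 20.63, and only 1 IgG sample is labelled knockout. Near equal values may repeat 1 background library, so they are not taken as independent. Which lists share a background was not tested. Depth of the H3K27ac libraries themselves was 12.4, 8.49 and 9.02 fragments per kb for controls, against 11.004, 10.9 and 9.10 for knockouts, and the lists held 21326 to 32012 peaks. At this locus, as elsewhere in the lists, the background library and the genotype cannot be told apart, and folds and −log10 p of different lists, where they stand side by side, are descriptions of each list and not compared as strength.

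**Figure D4:**
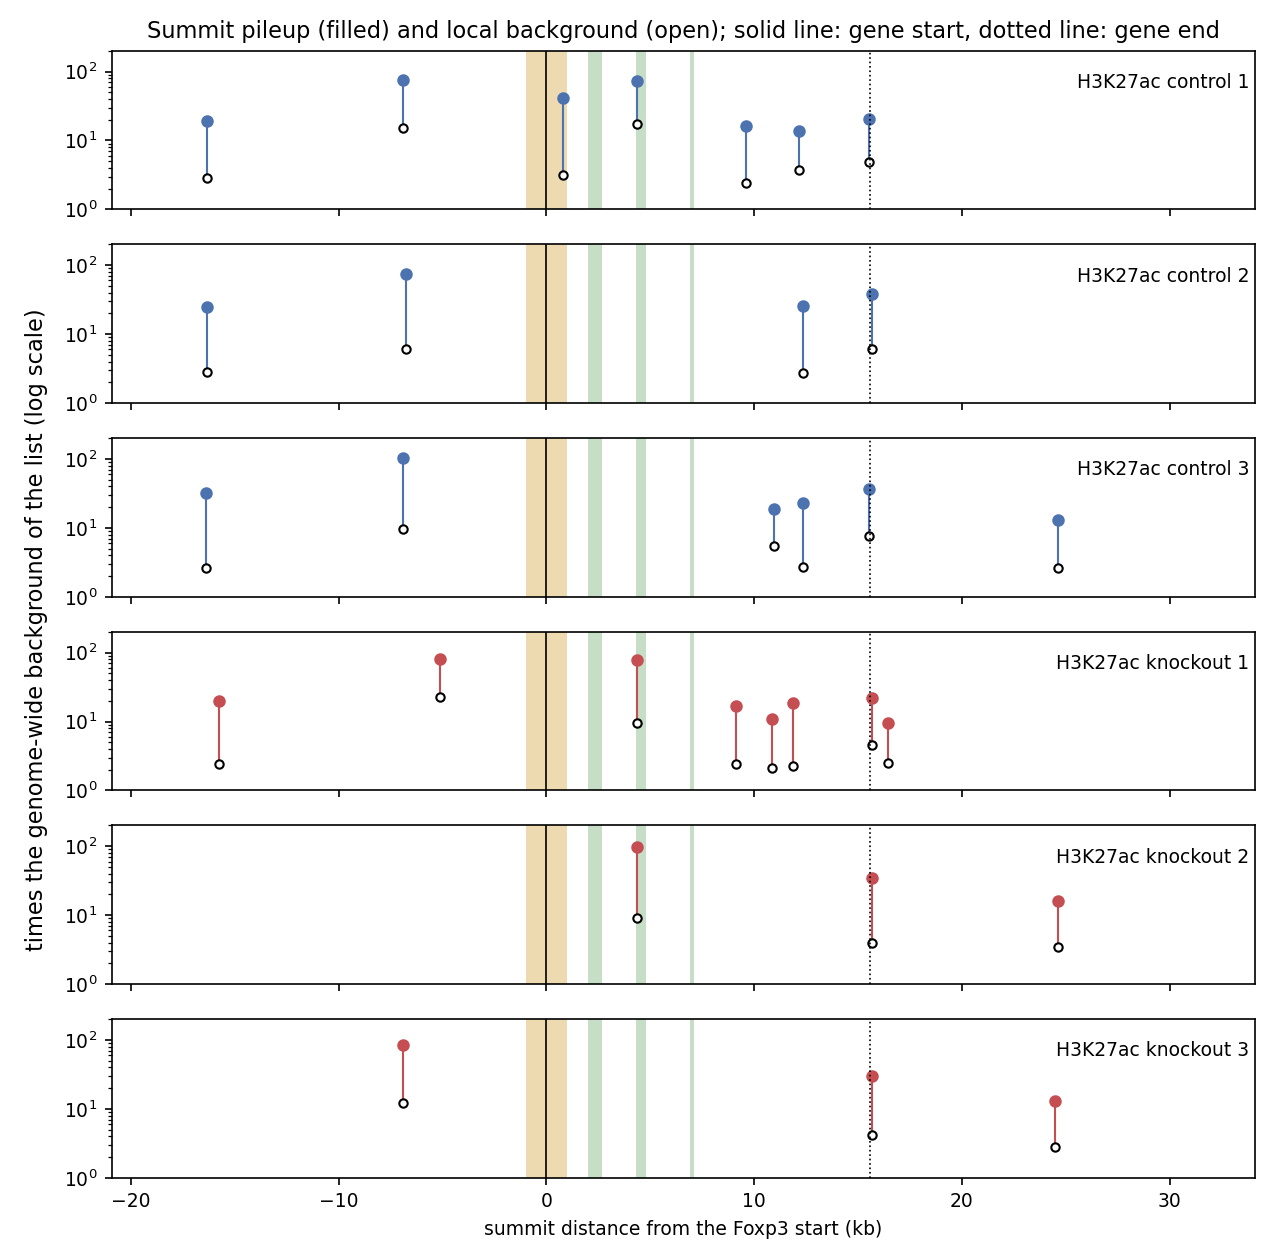
Summit pileup (filled points) and local background (open points) of each H3K27ac peak of the locus, both as multiples of the genome-wide background of the list, on a log axis, by distance from the Foxp3 start in kb. In each list the highest pileup, 75.7 or more times the genome-wide background, lies at CNS2 or at the upstream summit 5.12 to 6.91 kb before the start, where backgrounds are 6.19 to 22.7 times that value.

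The end of the gene was the only place with a summit in all 6 lists, when summits within 200 bp were grouped. That distance was chosen after seeing the data. These summits lay between 7461447 and 7461598, on either side of the gene end that the rule gives, 15.55 to 15.70 kb after the start. Controls 1 and 3 had theirs at 7461448 and 7461447, and the other lists at 7461593 to 7461598. Pileups were 59, 80 and 77 fragments for the controls, against 56, 106 and 72 for the knockouts. As multiples of the genome-wide background these were 20.5, 38.3 and 36.5, against 21.9, 34.8 and 30.0. Library 1 of each genotype was the lowest here too, and the groups overlapped.

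Inside the gene beyond CNS3, controls 1 to 3 had a summit 12.16 to 12.36 kb after the start, with 39, 53 and 49 fragments. These grouped within 200 bp, a distance chosen after seeing the data. Knockout 1 had its summit for the matching peak 11.88 kb after the start, with 48 fragments, outside that distance. In knockouts 2 and 3 this stretch was part of a wider peak, so that no separate summit could be listed. The remaining 4 summits between CNS3 and the gene end came from control 1, control 3 and knockout 1, with 28 to 46 fragments. Knockout 1 also had a peak of 314 bp just past the gene end, with 24 fragments and its summit 16.44 kb after the start.

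The far upstream end was likewise separate in the controls and joined in knockouts 2 and 3. A separate peak with a summit 16.33 to 16.39 kb before the start was listed in all 3 controls, with 56, 52 and 68 fragments. Knockout 1 also had a separate peak there, with 50 fragments and its summit 15.76 kb before the start. In knockouts 2 and 3 the same bases were joined to the main block, whose left edge lay at 7428940 and 7428948 against 7429157 to 7429314 in the other 4 lists. Peaks of the knockout lists were also wider over the whole genome. Median widths were 812, 846 and 820 bp in the control lists, against 901, 1063 and 936 bp in the knockout lists. Peaks of 10 kb or wider numbered 172, 287 and 283, against 206, 501 and 365. The part of this in the joining at Foxp3 was not tested.

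How many H3K27ac peaks the window held differed more between libraries than between genotypes. The control lists had 7, 4 and 6 peaks in the window and the knockout lists 8, 3 and 3. These counts include a separate peak right of the gene in control 3, knockout 2 and knockout 3, outside the acetylated stretch. The means were 5.67 ± 1.53 and 4.67 ± 2.89 (SD, n = 3 each, two-sided exact permutation test, p = 0.8). The difference of -1 became -2.67 without knockout 1, -1.83 without control 2, -0.33 without control 1 and -0.17 without knockout 2 or knockout 3.

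The 2 most broken lists, control 1 and knockout 1, come from chimera number 2 of each genotype and split at the same place between CNS1 and CNS2. The gap ran from 7448787 to 7449051 in control 1 and from 7448740 to 7449004 in knockout 1, 265 bp in each. These libraries were also the deepest of their genotypes, at 12.4 and 11.004 fragments per kb, the latter close to the 10.9 of knockout 2, and the part of depth in the splitting was not tested. A further gap, 13.19 to 13.87 kb after the start, was present in 5 of the 6 lists and closed only in knockout 3.

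To the right of the gene, a small separate H3K27ac peak was listed in control 3, knockout 2 and knockout 3. Its summit lay 24.48 to 24.65 kb after the Foxp3 start, past Foxp3 and not assigned to a gene here. The peaks were 284, 1924 and 478 bp wide, with 27, 49 and 31 fragments. Their percentiles of −log10 p within their own lists were 31.5, 51.4 and 43.3, against 95.7, 95.6 and 94.1 for the highest peak of the locus in the same lists.

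The window was then placed in a fit over the whole genome. Bases under H3K27ac peaks in 10 kb bins were compared between genotypes with limma as log2(bases + 100), and 0 of the 6 bins that touch the window passed an adjusted p of 0.05 in either direction (0 at an unadjusted p under 0.05). Of all 19295 bins tested, 2.25% were called lower and 0.58% higher in knockouts, 2.83% in all. The split of these calls, 435 lower and 112 higher, became 349 and 168 when values were quantile normalized, and 436 and 254 when all lists were cut to the shortest. The 3 bins from 7430001 to 7460000 lay at percentiles 99.2, 99.5 and 97.6 of mean covered length among all tested bins. Their log2 changes were 0.04 (SE 0.11), -0.01 (SE 0.11) and 0.06 (SE 0.13), with limma adjusted p of 0.908, 0.973 and 0.854. Without centring they were 0.06 (SE 0.04), 0.01 (SE 0.04) and 0.09 (SE 0.09). The negative sign of the bin from 7440001 and part of each SE thus come with the centring. A bin that is nearly full cannot rise, so these values limit losses of covered length better than gains of it. They do not limit a loss of signal, since bases with less signal can remain under a peak.

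In the bin from 7430001 to 7440000, controls had 9391, 9546 and 9574 covered bases and knockouts 9730, 10000 and 10000. Each knockout lay above each control, as was the case for 9.64% of all bins tested, while in 12.4% each knockout lay below each control. In the left edge bin, from 7420001 to 7430000, controls had 1219, 1720 and 2016 bases and knockouts 1542, 3599 and 2829, which overlap. Its log2 change was 0.58 (SE 0.33, limma adjusted p = 0.450), 0.93 without knockout 1 (0.0780) and 0.38 without control 1 (0.702). The bin also holds peaks to the left of the window. In the bin from 7460001 to 7470000 the log2 change was 0.07 (SE 0.21, limma adjusted p = 0.911).

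The last bin, from 7470001 to 7480000, held the small peak right of the gene. Controls had 0, 0 and 284 covered bases and knockouts 0, 1903 and 478. Its log2 change of 1.61 (SE 1.18, limma adjusted p = 0.573) depends on the pseudocount, and was 2.75 with 10 bases and 0.56 with 1000 bases. Without control 3 it was 2.26, without knockout 1 it was 2.77 and without knockout 2 it was 0.69, with limma adjusted p between 0.137 and 0.856 over all alternatives.

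H3K27me3 was all but undetected around Foxp3. Controls 1 and 2 and knockout 1 had 0 bases under peaks in the window, and knockout 2 had 345. This single peak, from 7476866 to 7477210, lay 15.4 kb after the gene end, at percentile 42.7 of −log10 p and 18.6 of width in its list. Means were 0 ± 0 and 173 ± 244 bases (SD, n = 2 each, two-sided exact permutation test, p = 1, where 0.33 is the smallest possible). No bin of the window had the mark in at least 2 libraries, so none of the 21034 bins tested with limma lay here. Of those bins, 0.0428% were called lower and 0.257% higher in knockouts, 0.3% in all. Both knockouts lay below both controls in 0.181% and above them in 39.5%. Control 1 had 7512 peaks over the genome, against 43945 in control 2, 36436 in knockout 1 and 57728 in knockout 2. With so short a control list, few bins can have both knockouts below it. These shares therefore cannot show a change between genotypes.

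The nearest H3K27me3 peaks were far away in the other lists. To the right of the gene they began 324 kb away in control 2 and 674 kb away in knockout 1. To the left they ended 754 kb away in control 2, 1132 kb in knockout 1 and 190.1 kb in knockout 2. These lists held 692, 383 and 1094 peaks on X, which covered only 386, 204 and 790 kb of the chromosome. How far other places on X lie from a peak was not tested, so the distances are not taken as particular to Foxp3. Control 1 had only 5 peaks on the whole chromosome, and its list reached a −log10 p of 7.21 where the other 3 began above 9, so that its 0 at Foxp3 comes from a list nearly empty on this chromosome.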

How the data were processed

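Peak lists were taken as the authors deposited them. Per the submitters' processing notes, MACS2 (version not given), Bowtie2 2.2.4, HOMER 4.11, ChIPseeker 1.30.3 and deepTools 3.5.1 were used, with build mm39. Settings, background library and duplicates are not given in the sources used here, and each list belongs to 1 library. Each deposited row gives start, end and summit offset, a score equal to 10 times the −log10 p with decimals dropped, a fold (ratio) over local background, and p and q as −log10 values. Coordinates are counted from 1.

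Covered bases, peak numbers and elements were computed in Python 3.11.15 from peaks on chromosomes 1 to 19, X and Y, with overlap from 1 bp. Pileup and background were solved from fold and −log10 p under a Poisson model with P(X > pileup) and a pseudocount of 1. In all 6 H3K27ac lists 100% of solved pileups were whole within 0.02 fragments. Depth of a library itself was the genome-wide background divided by the width of its narrowest peak. For the library behind the background, this was further divided by the step between local background values. That step was the spacing that best fitted the local backgrounds of the list. Summits within 200 bp were grouped, a distance chosen after seeing the data.

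Genotypes were compared by two-sided exact permutation tests. Bins of 10 kb were kept if 3 or more H3K27ac lists, or 2 or more H3K27me3 lists, covered them. They were fitted with limma 3.58.1 in R 4.3.3 (trended, robust, centred on bins covered in every library, Benjamini-Hochberg over all bins). The fit was also run on simulated normal values with its own means and spread, which cannot check its assumptions for full or empty bins. All peaks of the window are accounted for. Named by value were summits at an element, the highest peak of each list, recurrent summits and the 6 bins. Members and elements were chosen with earlier results of these data known. Alternatives were list length, thresholds, joining, pseudocount, filter, scaling, bin width, replicate block and leaving out libraries. Intervals cover counting error only.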

Additional observations from a re-analysis of the deposited data

How the results depend on the processing

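Over the alternatives run, covered length in the window and in the gene interval stayed higher in knockouts and peak number stayed lower. Each knockout list also had a higher median peak width over the whole genome than each control list, so these directions are not taken as particular to Foxp3. Without 1 library the differences in window length, gene length and peak number were between 961 and 3482 bases, between 213 and 1158 bases, and between -2.67 and -0.17 peaks. Joining peaks under 500 bp apart gave 2144 and 838 bases and -1.33 peaks. Whether replicate numbers pair the libraries was not settled. Correlations were taken of deviations from the mean of the genotype, so they do not measure how alike the libraries are. Same-numbered H3K27ac libraries had correlations of 0.246, 0.0530 and 0.0102. Those with different numbers had -0.213 to 0.177, and control 2 correlated best with knockout 3. For H3K27me3 the value was 0.0026 for same numbers and -0.0026 for different ones. With 2 libraries per genotype only the sign can differ, so these cannot decide it. As a replicate block, the sign-flip permutation p was 0.25, 0.25 and 0.75 for the 3 differences of 2062, 572 and -1 (smallest possible 0.25), and 1 for the H3K27me3 difference of 173 bases. It became 0 when lists were cut to their upper part or to equal length, and lay between 0 and 345 when 1 library was left out. The 1 peak is then below the cut or in the library left out.

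No window bin was called under any alternative. Of the log2 changes, that from 7430001 turned to -0.043, from 7450001 to -0.014 and from 7460001 to -0.081 with lists of equal length, and that from 7440001 to 0.013 without centring. Without 1 library they were between -0.053 and 0.12 (7430001), -0.10 and 0.077 (7440001), -0.055 and 0.16 (7450001) and -0.10 and 0.20 (7460001). Over the genome, limma called 435 H3K27ac bins lower and 112 higher, against 26 and 4 when 10 bases were added in place of 100, 169 higher when 1000 were, 269 and 58 unfiltered, 737 and 207 at 5 kb, 1083 and 275 at 2 kb, 254 higher at equal list length, 29 and 3 with the replicate block, and between 0 and 974 lower and 0 and 245 higher without 1 library. It called 0 and 0 without control 2 (1567 and 868 at an unadjusted p under 0.05) and without control 3 (1699 and 1051). For H3K27me3 it called 9 lower and 54 higher, against 1 and 0 when 10 bases were added (265 and 983 unadjusted), 4 and 11 unfiltered, 330 and 51 with quantile normalization, 3 and 29 at 5 kb, 9 and 62 with the replicate block, and between 0 and 725 lower and 27 and 5454 higher without 1 library. One genotype then has a single library, assumed to vary like the other genotype, and 725 and 5454 are the counts with control 1 (7512 peaks) as the only control. It called 0 and 0 with 1000 bases added (578 and 671 unadjusted), uncentred (2 and 556), at 2 kb (389 and 2265) and at equal list length (559 and 177). The cause of these changes was not tested.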
